A study of Mus musculus with 12 samples.

Results

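The 9 genes described here encode proteins that carry glucose into the cell, carry lactate across its membrane, or hold pyruvate back from oxidation. They were chosen by name, though with earlier results of these data known, and make up 9 of the 20201 genes in the deposited table. They comprise 3 glucose transporters (Slc2a1, Slc2a3 and Slc2a4), 2 lactate transporters (Slc16a1 and Slc16a3) and 4 pyruvate dehydrogenase kinases (Pdk1, Pdk2, Pdk3 and Pdk4). All 9 passed the filter on low values, a mean of 10 normalized counts over the 12 libraries. A normalized count is a gene's read count divided by a size factor for its library, so it can be compared between libraries but not, without a correction for length, between genes.

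RNA was sequenced from mouse myotubes, the multinucleated cells formed when cultured myoblasts fuse. The myoblasts were primary cells of mice carrying a floxed Bmal1 gene, which both groups share. Myotubes of 6 libraries are labelled wildtype and 21% O2, and the treatment protocol describes an empty virus for controls. Those of the other 6 libraries are labelled Bmal1 knockout and 1% O2, the knockout being made by an adenovirus with the Cre recombinase, which cuts out the floxed part. The virus was given for 48 hours and the oxygen level for 6 hours. The series' design text has virus-treated myotubes kept at either oxygen level and does not tie the level to the virus, whereas the sample labels hold only 2 of the 4 possible combinations. Genotype label and oxygen label change together in the sample labels, so by the labels alone their effects cannot be told apart. The labels name no culture, mouse or sequencing batch, so a p-value here reflects how far these libraries scatter, part of which may be technical. The libraries are numbered Myotube1-3 and Myotube7-9 in the labelled wildtype and Myotube4-6 and Myotube10-12 in the labelled knockout, which gives 4 blocks of 3 libraries.

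Glucose enters cells through passive GLUT transporters. GLUT1, the product of Slc2a1, serves basal uptake, GLUT3, from Slc2a3, has a high affinity for glucose and is best known from neurons, and GLUT4, from Slc2a4, is the insulin- and contraction-responsive transporter of muscle and fat. Glycolysis turns glucose into pyruvate, which is reduced to lactate or enters mitochondria. The monocarboxylate transporters MCT1 (Slc16a1) and MCT4 (Slc16a3) move lactate together with a proton, MCT4 being the main exporter of glycolytic muscle fibres. The PDK kinases phosphorylate the pyruvate dehydrogenase complex and thereby switch it off, which holds pyruvate back from oxidation. Slc2a1, Slc2a3, Slc16a3 and Pdk1 are textbook targets of the hypoxia-inducible factor, and Pdk4 is the isoform that fasting and fatty acids induce in muscle.

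The labels were checked with 2 genes. Arntl, the older symbol of Bmal1, lay between 133 and 179 normalized counts in the 6 labelled wildtype libraries and between 41.7 and 48.6 in the 6 labelled knockout libraries, with no overlap. Egln3, an oxygen sensor gene that low oxygen induces, lay between 194 and 270 in Myotube1-6 and between 2036 and 2258 in Myotube7-12, whatever the oxygen label. The oxygen labels therefore did not match this gene, and the groups are called "labelled" throughout. Which oxygen level Myotube4-6 and Myotube7-9 received was not settled here, so neither a difference between labels nor a ratio between numbered sets is read as an effect of oxygen. Libraries held 6376584 to 12463339 reads, of which 8 very abundant genes took 49.2% to 65.4%. The myotube markers (8 of 8 in the table) summed to between 13851 and 17934 normalized counts in the labelled wildtype and between 27346 and 30198 in the labelled knockout. Fibroblast markers (7 of 7) summed to between 84164 and 99277 and between 81467 and 113017. Most of that sum came from the collagen genes Col1a1 and Col3a1 (43140 and 37221 in Myotube1). Sums of different lists therefore do not give shares of cell types.

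The promoter windows of 7 of the 9 genes were read from RefSeq on build GRCm38.p6, each covering 250 bases before to 50 bases after the start. They were searched on both strands for ACGTG and GCGTG, the core that the hypoxia-inducible factor recognises, and for CACGTG, the E-box that BMAL1 and CLOCK recognise, which contains ACGTG on each strand. Capitals mark these letters or their reverse complement. The windows of Slc2a1, Slc16a3 and Pdk1 are shown because these genes moved together across the libraries, those of Slc16a1 and Pdk2 because they held the E-box, and that of Pdk4 because it moved with the genotype label.
Slc2a1, chr4:119108495-119108794, plus strand: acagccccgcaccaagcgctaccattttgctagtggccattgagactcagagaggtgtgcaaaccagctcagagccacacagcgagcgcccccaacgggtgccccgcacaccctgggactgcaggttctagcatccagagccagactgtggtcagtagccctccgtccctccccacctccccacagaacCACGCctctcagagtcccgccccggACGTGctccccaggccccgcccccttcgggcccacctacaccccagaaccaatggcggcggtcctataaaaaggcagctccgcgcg
Slc16a3, chr11:120948817-120949116, plus strand: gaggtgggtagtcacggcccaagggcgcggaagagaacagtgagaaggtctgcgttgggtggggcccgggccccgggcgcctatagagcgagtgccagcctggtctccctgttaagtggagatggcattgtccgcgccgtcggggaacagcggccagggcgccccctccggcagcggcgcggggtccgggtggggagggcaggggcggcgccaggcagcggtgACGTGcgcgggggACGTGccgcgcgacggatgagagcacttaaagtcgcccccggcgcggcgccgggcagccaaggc
Pdk1, chr2:71872974-71873273, plus strand: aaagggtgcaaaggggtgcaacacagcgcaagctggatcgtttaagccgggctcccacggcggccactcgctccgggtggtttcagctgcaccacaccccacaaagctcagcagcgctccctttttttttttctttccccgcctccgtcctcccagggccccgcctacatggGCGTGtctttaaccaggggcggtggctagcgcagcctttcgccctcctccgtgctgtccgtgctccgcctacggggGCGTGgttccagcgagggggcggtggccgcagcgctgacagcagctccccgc
Slc16a1, chr3:104638414-104638713, plus strand: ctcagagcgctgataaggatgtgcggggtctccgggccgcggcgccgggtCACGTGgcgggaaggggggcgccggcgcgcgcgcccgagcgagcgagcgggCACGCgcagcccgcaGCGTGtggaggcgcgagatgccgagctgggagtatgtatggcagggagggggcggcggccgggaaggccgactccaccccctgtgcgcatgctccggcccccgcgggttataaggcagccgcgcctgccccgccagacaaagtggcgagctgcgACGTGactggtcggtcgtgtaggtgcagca
Pdk2, chr11:95041322-95041621, minus strand: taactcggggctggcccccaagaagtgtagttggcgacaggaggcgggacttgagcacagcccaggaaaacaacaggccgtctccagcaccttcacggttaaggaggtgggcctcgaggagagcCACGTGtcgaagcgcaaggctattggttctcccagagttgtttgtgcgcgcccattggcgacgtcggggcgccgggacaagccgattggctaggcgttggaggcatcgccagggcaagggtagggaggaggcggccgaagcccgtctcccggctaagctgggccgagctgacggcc
Pdk4, chr6:5496229-5496528, minus strand: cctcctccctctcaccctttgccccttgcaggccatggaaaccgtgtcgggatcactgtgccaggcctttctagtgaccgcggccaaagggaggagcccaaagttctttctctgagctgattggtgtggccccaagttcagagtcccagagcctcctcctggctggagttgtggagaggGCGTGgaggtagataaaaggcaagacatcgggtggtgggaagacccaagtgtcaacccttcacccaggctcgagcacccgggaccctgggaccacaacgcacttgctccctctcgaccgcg

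The Slc2a1 window held ACGTG 36 to 32 bases before the start and, on the reverse strand, GCGTG 61 to 57 bases before it. Slc16a3 held ACGTG in 2 places, 27 to 23 and 14 to 10 bases before the start. Pdk1 held GCGTG 78 to 74 bases before the start and again across the start. The E-box stood 200 to 195 bases before the start of Slc16a1 and 126 to 121 bases before that of Pdk2. Slc16a1 also held ACGTG 21 to 25 bases after the start. It held GCGTG 134 to 130 bases before the start and, on the reverse strand, 149 to 145 bases before it. Pdk4 held a single GCGTG, 71 to 67 bases before the start. Pdk3, on chromosome X, held 1 ACGTG and 3 GCGTG, while the additional windows of Pdk1 and Pdk2 at a start further inside the gene held none of these letters. Over all 32851 windows of this length, 43.77% held ACGTG or GCGTG, 19.62% ACGTG and 7.15% CACGTG. In windows of at least 60% GC these shares were 69.22%, 26.5% and 10.85%, and below that 33.13%, 16.75% and 5.604%. The 6 windows shown had 60.7% to 73.7% GC, so a match to ACGTG or GCGTG is common in windows of their kind. The E-box is less common there (10.85%).

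Across the numbered blocks, most of the 9 genes were higher in Myotube7-9 than in Myotube1-3 and in Myotube10-12 than in Myotube4-6. Within the labelled wildtype, 7 of 9 genes were higher in all 3 of the higher-numbered libraries than in any of the lower-numbered, namely all but Slc2a4 and Pdk2. Of the 12553 genes tested, 17.6% were higher in this way and 16.3% lower. Within the labelled knockout it was again 7 of 9, all but Slc2a4 and Pdk4, against 19.9% of all genes higher and 19.9% lower. None of the 9 was lower without overlap in either label. The means were at least 2-fold higher for 5 of the 9 in the labelled wildtype (Slc2a1, Slc2a3, Slc16a1, Slc16a3 and Pdk1), against 4.31% of all genes, and for 4 of them, without Slc16a1, in the labelled knockout, against 4.92%. The boundary between these numbers is no label of the study and was known from earlier results, so the blocks were described and not tested. The 12 hypoxia readout genes, a list that includes Egln3 and none of the 9, were all higher without overlap in both labels. Their median log2 ratio was 1.99 in the labelled wildtype and 2.01 in the labelled knockout, where the medians of all genes were -0.01 and -0.02. Egln3 had already shown this boundary, so the readouts describe the split and are no independent support for it.

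**Figure D1:**
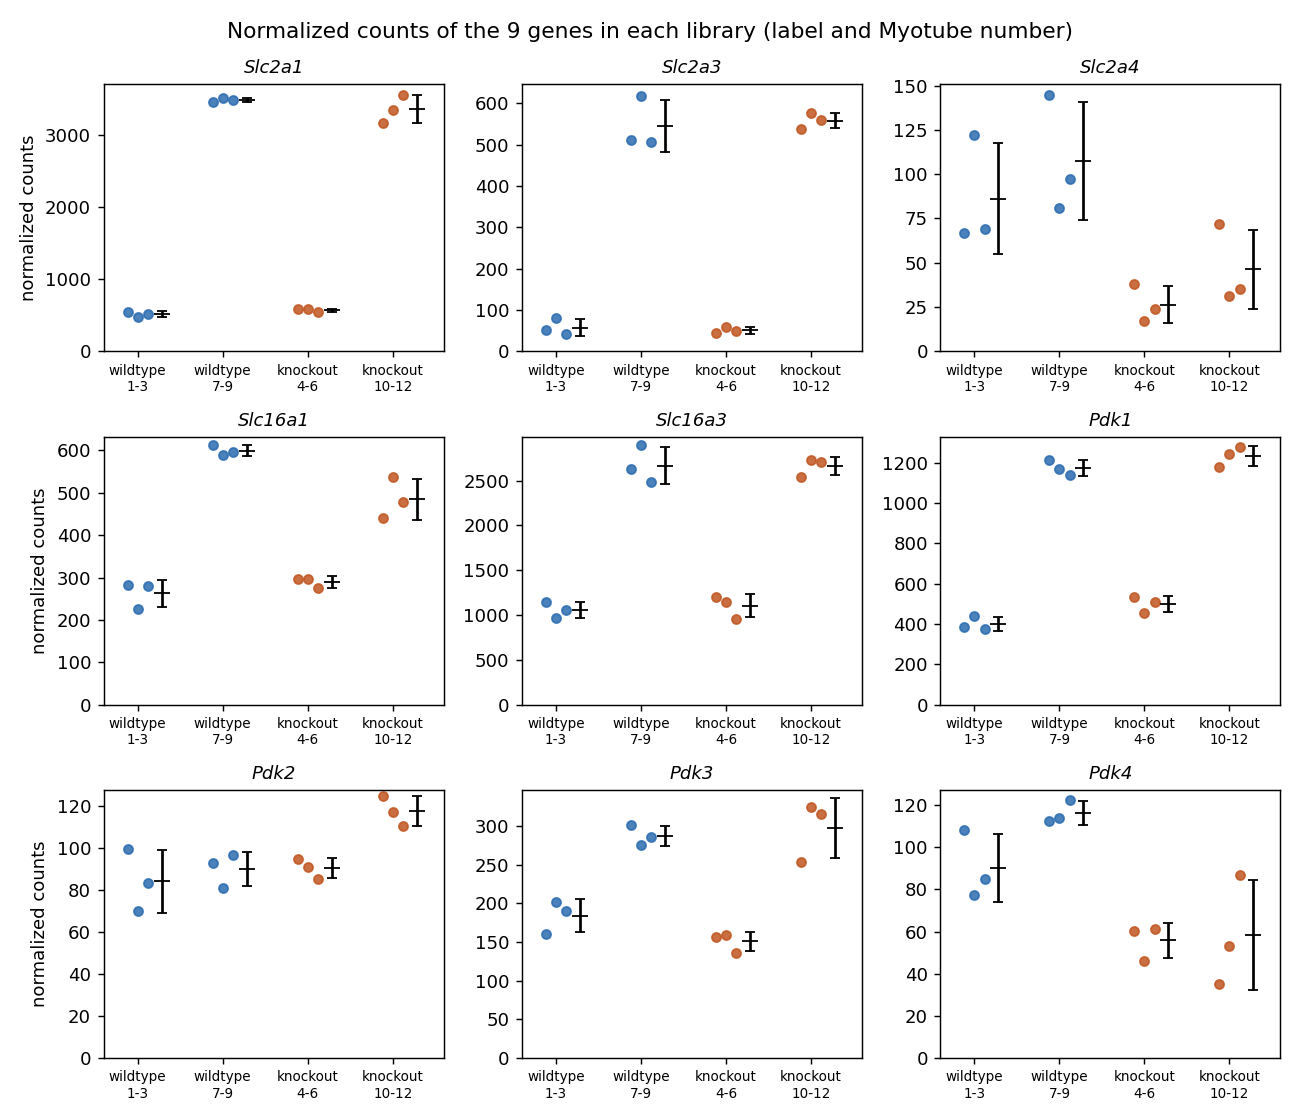
Normalized counts of each of the 9 genes (vertical axis, starting at 0) in each library, grouped by label and Myotube number (horizontal axis). Points are libraries, and the bar beside each block is its mean and SD over 3 libraries. Slc2a1 sits between 475 and 588 in Myotube1-6 and between 3168 and 3554 in Myotube7-12, while Slc2a4 and Pdk4 are lower in the labelled knockout within each numbered set.

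Slc2a1 (ENSMUSG00000028645, chr4:119108711-119137983, plus strand, mm10) held 2 separate levels across the 12 libraries. It stood at 553, 475 and 521 in Myotube1-3 and at 581, 588 and 549 in Myotube4-6. In Myotube7-9 it stood at 3457, 3514 and 3487, and in Myotube10-12 at 3168, 3337 and 3554. Every higher-numbered library lay above every lower-numbered one, and within each set the labels overlapped. The mean was 6.75-fold higher in Myotube7-9 than in Myotube1-3 and 5.85-fold higher in Myotube10-12 than in Myotube4-6. The order of block means was Myotube7-9 (3486 ± 28.3, SD, n = 3), Myotube10-12 (3353 ± 193), Myotube4-6 (573 ± 20.8) and Myotube1-3 (517 ± 39.0). The means of Myotube7-9 and Myotube10-12 differed by less than the SD of Myotube10-12, while those of Myotube4-6 and Myotube1-3 lay further apart than either SD.

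On the deposited scale the knockout label made no called difference in Slc2a1. Over all 12 libraries the log2 difference, labelled knockout minus labelled wildtype, was 0.05 with an SE of 0.72 (limma, Benjamini-Hochberg adjusted p = 0.978), and the wide SE carries the gap between the numbered sets. Its interval of 95% ran from 0.351-fold to 3.04-fold. Within Myotube7-12 the difference was -0.06 (SE 0.07, adjusted p = 0.634), and the interval there was narrower, from 0.867-fold to 1.06-fold. With the 8 very abundant genes left out of the scaling, Slc2a1 was called lower there (-0.22, adjusted p = 0.0446). Within Myotube1-6 the difference was 0.15 (SE 0.07), with an interval from 1.002-fold to 1.23-fold, a limma p of 0.0465 before adjustment and of 0.144 after it, and under that other scaling it was -0.019 (adjusted p = 0.865).

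Slc2a3 (ENSMUSG00000003153, chr6:122727809-122801640, minus strand) had the largest ratio between the numbered sets among the 9 genes. It stood at 51.1, 80.5 and 41.1 in Myotube1-3, at 43.7, 59.7 and 50.6 in Myotube4-6, at 511, 618 and 507 in Myotube7-9 and at 538, 576 and 560 in Myotube10-12. Every library of the higher-numbered set was above every library of the lower-numbered set, and within each set the labels overlapped. The means were 9.48-fold apart in the labelled wildtype and 10.9-fold apart in the labelled knockout. The knockout label made no called difference over 12 libraries (log2 difference -0.04, SE 0.92, adjusted p = 0.985) or within Myotube7-12 (0.04, SE 0.20, adjusted p = 0.932).

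Slc2a4 (ENSMUSG00000018566, chr11:69942539-69948188, minus strand), the muscle-typical transporter, fell with the knockout label. It stood at 66.9, 122 and 69.1 normalized counts in Myotube1-3 and at 145, 80.7 and 97.1 in Myotube7-9. In the labelled knockout it stood at 37.9, 17.4 and 24.0 in Myotube4-6 and at 72.1, 31.5 and 35.3 in Myotube10-12. Within each numbered set every labelled knockout library lay below every labelled wildtype library. Over all 12 libraries the groups touched, because Myotube10 (72.1) lay above Myotube1 and Myotube3. The labelled wildtype mean was 96.8 ± 31.2 (SD, n = 6) and the labelled knockout mean 36.4 ± 19.1 (n = 6), 2.66-fold lower.

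The fall of Slc2a4 passed the test over 12 libraries, with a log2 difference of -1.47 (SE 0.30, limma adjusted p = 0.0035) and an interval from 0.232-fold to 0.565-fold. It also passed within Myotube1-6 (-1.68, SE 0.37, adjusted p = 0.0073) and within Myotube7-12 (-1.25, SE 0.37, adjusted p = 0.036). The call within Myotube7-12 was lost without Myotube7 (adjusted p = 0.151), Myotube9 (0.0777), Myotube11 (0.129) or Myotube12 (0.115). The reads behind these values were few, 74 to 198 per labelled wildtype library and 14 to 46 per labelled knockout library. For the lowest, Myotube5 with 14 reads, the exact Poisson interval ran from 7.65 to 23.5 reads, which covers counting error only. The highest value of Myotube1-3 (Myotube2), of Myotube7-9 (Myotube7) and of Myotube10-12 (Myotube10) came from the shallowest library of its block. Depths in Myotube7-9 were close, however, at 5467852 (Myotube7), 5714499 and 5691148 reads outside the very abundant genes. In Myotube4-6 the shallowest library, Myotube5, held the lowest value instead. The part of depth in these values was not tested. In bulk RNA, fewer cells of a type and less RNA per cell cannot be told apart.

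Muscle markers moved in both directions with the knockout label, in a fit where 10.2% of all genes rose and 9.07% fell. Of the 8 myotube markers, 5 rose with the knockout label (Acta1, Ckm, Des, Tnnt3 and Mylpf, encoding contractile, energy and cytoskeletal proteins of the sarcomere, with log2 differences of 1.09 to 1.44) and 2 fell (Myog at -0.51 and Actn2 at -0.38). Of the 4 markers of undifferentiated myoblasts, Myf5 fell (-2.71), and of the 6 endothelial markers 3 rose, their summed level lying between 921 and 1046 in the labelled wildtype and between 1247 and 1539 in the labelled knockout. Of the 7 fibroblast markers, 0 rose and 1 fell by limma, and 1 rose and 1 fell by DESeq2. Macrophage markers summed to between 44.6 and 95.4 over all libraries, with Ptprc at 0 to 1.95. Adipocyte markers were near 0, with fat being the other tissue known for GLUT4: Adipoq and Cfd, the 2 of 5 in the table, summed to at most 1.76. The part of the myotube, myoblast and endothelial markers in the Slc2a4 result was not tested.

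Counting all 9 genes, 0 rose and 2 fell with the knockout label over 12 libraries (Slc2a4 and Pdk4), where 19.2% of the 12553 tested genes passed, 1277 higher (10.2%) and 1139 lower (9.07%). In 0 of the 9 genes did the 6 and 6 libraries stand apart without overlap, against 7.07% of all genes higher and 5.38% lower in the labelled knockout. Genes whose numbered sets lay far apart within each label, such as Slc2a1 and Slc2a3, could hardly have labels that stand apart over 12 libraries. Their pooled SE was wide as well (0.72 and 0.92), so for such genes neither count tells of the label. The median log2 difference was -0.04 over the 9 genes and 0.00 (-0.00147) over all genes. With the 8 very abundant genes left out of the scaling, 613 genes were higher and 2201 lower, and the median of all genes shifted to -0.165. Slc2a4 (-1.63) and Pdk4 (-1.04) kept their calls under that scaling and stayed below this shifted median. Within Myotube1-6, 1 gene rose (Pdk1) and 1 fell (Slc2a4), where 18.8% of all genes passed, 10.8% higher and 7.97% lower. Within Myotube7-12, 0 rose and 2 fell (Slc2a4 and Pdk4), where 16.5% passed, 8.84% higher and 7.64% lower. These shares of members are near the background, and no statement about the 9 genes as a group rests on them.

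**Figure D2:**
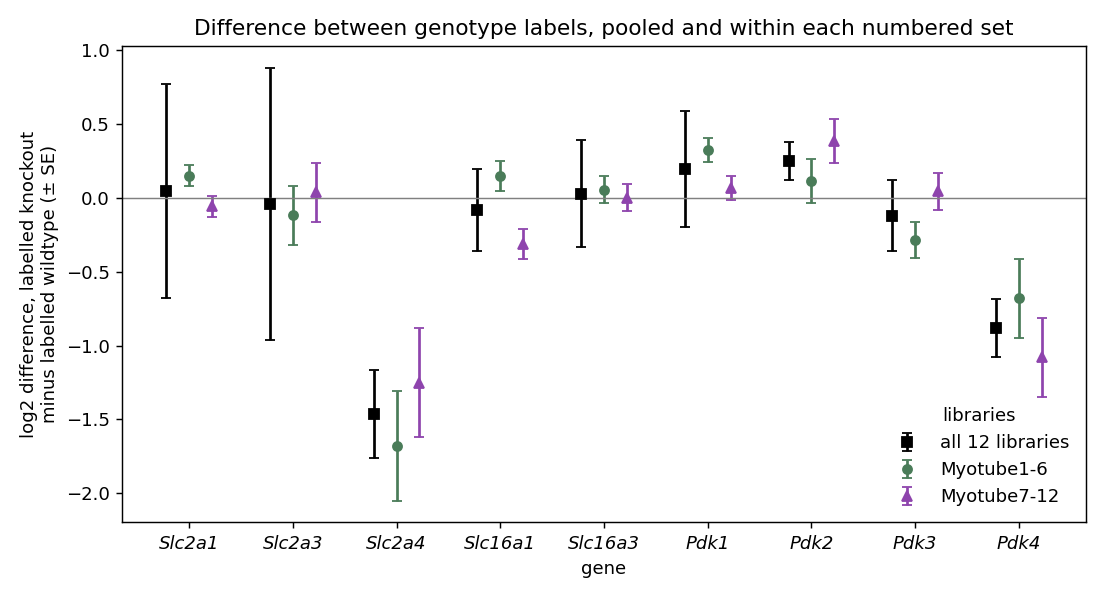
Log2 difference, labelled knockout minus labelled wildtype (vertical axis), for each of the 9 genes (horizontal axis) over all 12 libraries (squares), within Myotube1-6 (circles) and within Myotube7-12 (triangles). Bars are ± 1 SE of the limma fit. Slc2a4 lies at -1.47, -1.68 and -1.25 and Pdk4 at -0.88, -0.68 and -1.08, and the pooled SE of Slc2a1 and Slc2a3 (0.72 and 0.92) is wide because the numbered sets differ.

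Per kilobase of merged exons, Slc2a1 made up most of the summed level of the 3 glucose transporters in every library. Its share lay between 74.6% and 85.7% in Myotube1-3 and between 89.8% and 92.7% in the other 9 libraries. These shares do not depend on how libraries were scaled against each other. Slc2a4 held 13.7% ± 4.88 (SD, n = 3) in Myotube1-3, 4.26% ± 1.61 in Myotube4-6, 2.81% ± 0.878 in Myotube7-9 and 1.29% ± 0.682 in Myotube10-12. Its share was thus smaller in the labelled knockout within each set and smaller in the higher-numbered set within each label, without overlap in any of these 4 pairs, the narrowest being Myotube7-12 (at least 2.09% against at most 2.08%). The family's summed level per kilobase was 180.0 and 178 normalized counts in Myotube1-3 and Myotube4-6 and 1101 and 1047 in Myotube7-9 and Myotube10-12. The mean of Slc2a4 itself was 1.25-fold higher in Myotube7-9 than in Myotube1-3, with overlap. In Myotube10-12 it was 1.75-fold higher than in Myotube4-6, again with overlap. The smaller Slc2a4 share in the higher-numbered set thus went with a larger family sum, not with a fall of Slc2a4. With the longest coding transcript as the length, Slc2a1 still led, at 67.9% to 89.1%.

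Slc16a3 (ENSMUSG00000025161, chr11:120948480-120960868, plus strand), encoding the exporter MCT4, was higher in the higher-numbered set in both labels. It stood at 1143, 971 and 1059 in Myotube1-3, at 1201, 1148 and 957 in Myotube4-6, at 2628, 2893 and 2482 in Myotube7-9 and at 2546, 2735 and 2712 in Myotube10-12. The labels overlapped within each set and the sets did not overlap within either label, with means 2.52-fold apart in the labelled wildtype and 2.42-fold apart in the labelled knockout. The label difference was 0.03 over 12 libraries (SE 0.36, limma adjusted p = 0.972). Within Myotube7-12 the interval ran from 0.871-fold to 1.15-fold.

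Slc16a1 (ENSMUSG00000032902, chr3:104638668-104658462, plus strand), encoding MCT1, was also higher in the higher-numbered set, and more so in the labelled wildtype. It stood at 283, 226 and 280.3 in Myotube1-3 and at 297, 297 and 274 in Myotube4-6, with overlap between the labels. In Myotube7-9 it stood at 613, 589 and 597 and in Myotube10-12 at 441, 536 and 478, where all labelled knockout libraries lay below all labelled wildtype libraries. The sets were 2.28-fold apart in the labelled wildtype and 1.67-fold apart in the labelled knockout. The label difference within Myotube7-12 was -0.31 (SE 0.10, limma adjusted p = 0.0552) and missed the threshold, while edgeR (adjusted p = 0.0454) and DESeq2 (0.0219) on the recovered reads called it, as did limma without Myotube2 (0.0111), without Myotube11 (0.0409), with a minimum mean of 50 (0.0453) and with the very abundant genes left out (-0.47, adjusted p = 0.0084). Within Myotube1-6 it was 0.15 (SE 0.10, adjusted p = 0.345). The difference between these differences was -0.46 (SE 0.14), with an unadjusted p of 0.0076 and an adjusted p of 0.549 over all genes.

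MCT4 held most of the lactate transporter level per kilobase, between 74.4% and 82.8% across the 12 libraries. The share of Slc16a1 was 17.9% ± 1.00 (SD, n = 3) in Myotube10-12, below each library of the other 3 blocks, which had means of 23.0%, 24.1% and 21.3%. Bsg, encoding basigin, the chaperone that brings MCT1 and MCT4 to the membrane, was named for that role after its values were seen. It was higher without overlap in the higher-numbered set of both labels (1.85-fold and 1.41-fold). On the deposited scale Bsg rose with the knockout label within Myotube1-6 (log2 difference 0.56, SE 0.08, limma adjusted p = 0.00054) and gave 0.36 (SE 0.21, adjusted p = 0.261) over 12 libraries.

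**Figure D3:**
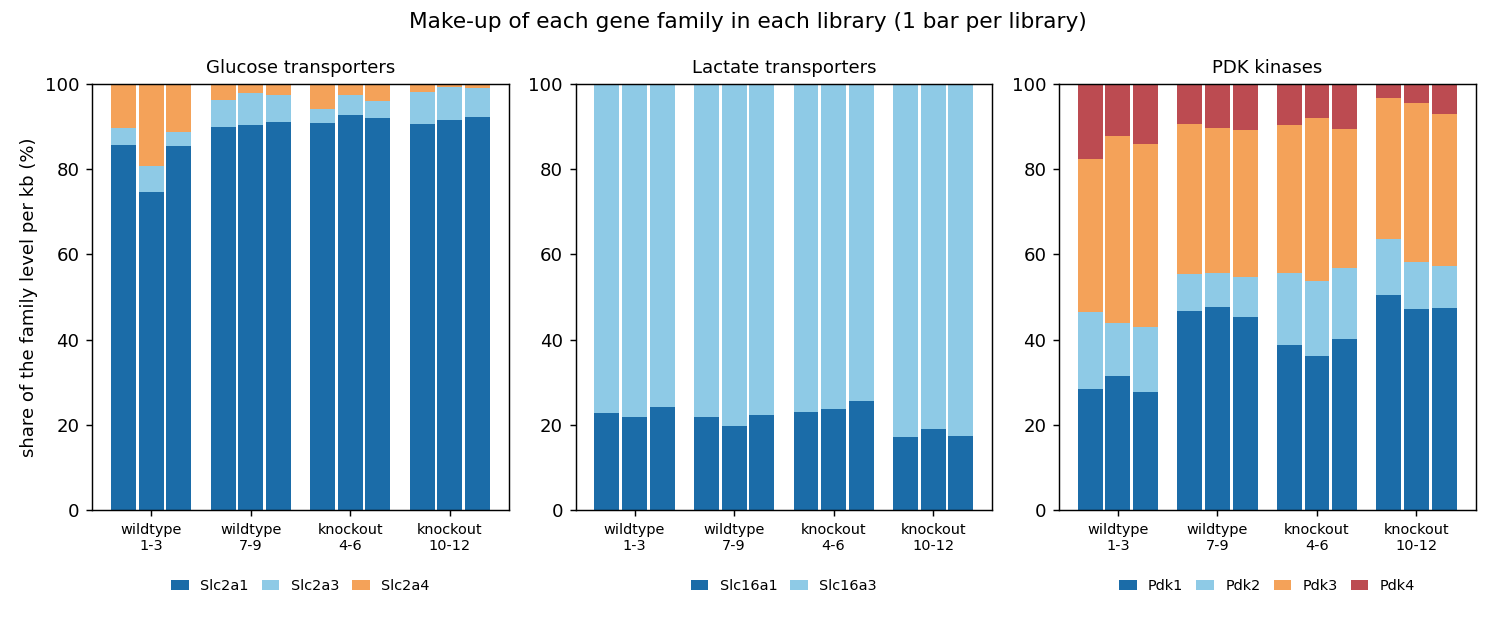
Share of each gene in its family's summed level per kilobase of merged exons (vertical axis, percent) in each library (1 bar per library, grouped by label and Myotube number on the horizontal axis), for glucose transporters, lactate transporters and PDK kinases. The Slc2a4 share falls from 13.7% in Myotube1-3 to 1.29% in Myotube10-12 on average, the Slc16a1 share is smallest in Myotube10-12 (17.9%), and Pdk1 takes 29.2% in Myotube1-3 and 48.3% in Myotube10-12.

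Among the kinases, Pdk1 (ENSMUSG00000006494, chr2:71873224-71903858, plus strand) differed most between the numbered sets. It stood at 386, 439.8 and 373 in Myotube1-3, at 533, 457 and 508 in Myotube4-6, at 1214, 1167 and 1138 in Myotube7-9 and at 1178, 1241 and 1277 in Myotube10-12. The sets did not overlap in either label and were 2.94-fold apart in the labelled wildtype and 2.47-fold apart in the labelled knockout. Within Myotube1-6 all labelled knockout libraries lay above all labelled wildtype libraries, and within Myotube7-12 the labels overlapped. Pdk1 rose with the knockout label within Myotube1-6, by a log2 difference of 0.32 (SE 0.08, limma adjusted p = 0.0157). That call was lost without Myotube3 (adjusted p = 0.0506), Myotube4 (0.0708) or Myotube6 (0.0533), and with the very abundant genes left out (0.15, adjusted p = 0.181). It gave 0.07 (SE 0.08, adjusted p = 0.63) within Myotube7-12 and 0.20 (SE 0.40, adjusted p = 0.790) over 12 libraries. With the numbered set as an additive term, which removes the set from the spread, the same 0.20 passed (SE 0.07, adjusted p = 0.0385).

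Pdk3 (ENSMUSG00000035232, chrX:93764607-93832201, minus strand), a kinase isoform of restricted tissue distribution, stood at 160.2, 201 and 189.7 in Myotube1-3 and at 157, 159 and 136 in Myotube4-6. It stood at 301, 275 and 286 in Myotube7-9 and at 253, 324 and 316 in Myotube10-12. The sets were 1.56-fold apart in the labelled wildtype and 1.98-fold apart in the labelled knockout, without overlap. The label difference was -0.28 (SE 0.12, limma adjusted p = 0.128) within Myotube1-6, where the labels did not overlap, and 0.04 (SE 0.12, adjusted p = 0.860) within Myotube7-12. It passed within Myotube1-6 with the very abundant genes left out (-0.45, adjusted p = 0.0191).

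Pdk2 (ENSMUSG00000038967, chr11:95026258-95041354, minus strand), the broadly expressed isoform, changed least between the sets in the labelled wildtype. It stood at 99.5, 69.7 and 83.2 in Myotube1-3, at 94.8, 90.8 and 85.2 in Myotube4-6, at 92.8, 80.7 and 96.4 in Myotube7-9 and at 125, 117 and 111 in Myotube10-12. Only the block Myotube10-12 lay above all others, by 1.3-fold over Myotube4-6 and by 1.31-fold over Myotube7-9. The label difference was 0.25 (SE 0.13, limma adjusted p = 0.202) over 12 libraries and 0.38 (SE 0.15, adjusted p = 0.0991) within Myotube7-12. It passed there without Myotube2 (adjusted p = 0.0382).

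Pdk4 (ENSMUSG00000019577, chr6:5483351-5496309, minus strand), the fasting-induced kinase, fell with the knockout label. It stood at 108, 77.4 and 85.02 in Myotube1-3 and at 112, 114 and 123 in Myotube7-9, against 60.2, 46.0 and 61.2 in Myotube4-6 and 35.1, 52.9 and 86.8 in Myotube10-12. Within each set all labelled knockout libraries lay below all labelled wildtype libraries, while over 12 libraries Myotube12 (86.8) lay above Myotube2 and Myotube3. The means were 103 ± 17.9 (SD, n = 6) in the labelled wildtype and 57.0 ± 17.5 (n = 6) in the labelled knockout, 1.81-fold lower. The log2 difference was -0.88 (SE 0.20, limma adjusted p = 0.0062), with an interval from 0.406-fold to 0.728-fold.

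Within Myotube7-12 Pdk4 fell by 1.08 on the log2 scale (SE 0.27, limma adjusted p = 0.0147), a call that was lost without Myotube9 (0.0536). Within Myotube1-6 it gave -0.68 (SE 0.27, adjusted p = 0.093), which passed with DESeq2 (0.0469), with the very abundant genes left out (0.0338), and without Myotube10 (0.0398) or Myotube12 (0.0358). Pdk4 rested on 18 to 172 reads per library. Between the numbered sets it was 1.29-fold apart in the labelled wildtype, without overlap on the deposited scale and with overlap once the very abundant genes were left out, and 1.04-fold apart with overlap in the labelled knockout. The same marker lists that accompany the Slc2a4 result move with the knockout label here, and their part in the Pdk4 result was not tested.

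The make-up of the kinase family per kilobase of merged exons followed both numberings and labels. In Myotube1-3 Pdk3 held the largest share (40.9% ± 4.37, SD, n = 3), ahead of Pdk1 (29.2% ± 2.01). In Myotube7-9 Pdk1 led with 46.5% ± 1.17 and in Myotube10-12 with 48.3% ± 1.89. Myotube4-6 lay between, with Pdk1 at 38.3% ± 2.06 and Pdk3 at 35.1% ± 2.85, which overlap. With the longest coding transcript as the length Pdk1 led in Myotube4-6 as well (43.0% against 31.8%). The Pdk4 share was smaller in the labelled knockout within each set without overlap, 9.49% ± 1.34 against 14.7% ± 2.74 in Myotube1-6 and 4.97% ± 1.95 against 10.2% ± 0.623 in Myotube7-12. The family's summed level per kilobase was 175 and 167 in Myotube1-3 and Myotube4-6 and 325 and 328 in Myotube7-9 and Myotube10-12.

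The label difference was itself compared between the numbered sets. None of the 9 genes passed (0 of 9 by limma, where 1 of 12553 genes, 0.00797%, passed), and 0 passed by edgeR and 0 by DESeq2. Before adjustment, Slc16a1 (-0.46) and Pdk1 (-0.25, SE 0.12) gave limma p-values of 0.0076 and 0.0484. The share of all genes under 0.05 before adjustment was not counted, so no statement rests on these p-values. The interval of the difference between sets was 0.613-fold to 2.95-fold for Slc2a4 and 0.432-fold to 1.33-fold for Pdk4, so the label effects in the sets were not resolved from each other.

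Other genes of the same pathways were read from lists and tested in the fit over 12 libraries. That fit called 10.2% of all genes higher and 9.07% lower with the knockout label. The lists were not recounted with the very abundant genes left out of the scaling. Of the other GLUT and SGLT transporters, 9 of 11 were in the table and 6 were tested, with 0 called by limma, edgeR or DESeq2 and 0 at an unadjusted p under 0.05. The most abundant, Slc2a8, an intracellular GLUT, had means of 49.0 ± 22.01 (SD, n = 6) and 52.4 ± 13.7 (n = 6). Of 5 tested MCT genes and chaperones 1 fell, Slc16a10, an aromatic amino acid transporter (log2 difference -0.86, SE 0.21, limma adjusted p = 0.0099). Of 18 genes of GLUT4 trafficking and glucose uptake, 0 rose and 2 fell. These were Sort1, encoding sortilin of GLUT4 storage vesicles (-0.85, SE 0.12, adjusted p = 0.00029), and Rab10, a GTPase of GLUT4 vesicle delivery known from fat cells (-0.29, SE 0.07, adjusted p = 0.011). Medians over these lists were 0.12, -0.42 and -0.12.

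Targets and opponents of the kinases moved with the label in both directions. Of 8 genes of the pyruvate dehydrogenase complex and its phosphatases, 3 rose and 1 fell, with a median log2 difference of 0.22. Of all genes 10.2% rose and 9.07% fell. Pdha1 and Pdhb, the subunits of the decarboxylase that the PDK kinases act on, rose by 0.52 (SE 0.07, limma adjusted p = 0.00023) and 0.59 (SE 0.10, adjusted p = 0.00095). Pdp1, the phosphatase that reverses PDK action, fell by 0.82 (SE 0.13, adjusted p = 0.00048). Of 5 pyruvate carriers and lactate dehydrogenases 2 rose, Ldhb (0.60, SE 0.09, adjusted p = 0.00025) and Mpc1, a subunit of the mitochondrial pyruvate carrier (0.54, SE 0.08, adjusted p = 0.0006), with a list median of 0.20.

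Of 8 tested regulators known to act on Pdk4, 0 rose and 2 fell, with a list median of -0.19. Of all genes 10.2% rose and 9.07% fell, and no statement about the regulators as a group rests on this count. Ppargc1a, the coactivator PGC-1 alpha, went from 60.3 ± 32.4 (SD, n = 6) to 12.4 ± 7.81 (n = 6), a log2 difference of -2.27 (SE 0.41, limma adjusted p = 0.0014). Klf15 went from 17.3 ± 5.67 to 6.03 ± 2.28 (-1.39, SE 0.30, adjusted p = 0.0051), close to the floor of 3 reads, which is 2.12 to 5.85 normalized counts. The lowest Ppargc1a value, 3.73 in Myotube5, lay at that floor as well. Of 16 glycolysis enzymes 3 rose and 0 fell over 12 libraries, among them the muscle forms Pgam2 (0.83, SE 0.10, adjusted p = 6.9e-05) and Eno3 (0.60, SE 0.08, adjusted p = 0.00018). Within Myotube1-6, 11 of 16 rose, where 10.8% of all genes did, and within Myotube7-12, 7 of 16, where 8.84% did. The list medians were 0.37 and 0.20 on the deposited scale. With the very abundant genes left out of the scaling, the medians of all genes shifted to -0.173 and -0.157. The enzymes were not recounted under that scaling. Between the numbered sets 12 of the 16 were higher without overlap in each label, against 17.6% and 19.9% of all genes, with median log2 ratios of 0.64 and 0.46, smaller than the ratios of Slc2a1 and Slc2a3. Over 12 libraries the 12 hypoxia readouts gave 0 calls for the label by limma, edgeR or DESeq2 and 0 at an unadjusted p under 0.05. That fit leaves the gap between the numbered sets in the spread (Ero1l, 0.08, SE 0.80), so it could hardly call genes that split this way. Within Myotube1-6, 2 rose and 2 fell by limma and by DESeq2, and 2 rose and 0 fell by edgeR. Limma called 10.8% of all genes higher and 7.97% lower there. An unadjusted p under 0.05 was reached by 7 of the 12 in this set, but its share over all genes was not counted. No statement about the readouts as a group rests on that count. By limma, Bnip3 (log2 difference 0.30) and P4ha1 (0.27) rose there and Ankrd37 (-0.65) and Ndrg1 (-0.21) fell, genes named after their values were seen. Within Myotube7-12 there were 0 calls by each tool and 1 at an unadjusted p under 0.05, where limma called 8.84% of all genes higher and 7.64% lower.

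**Figure D4:**
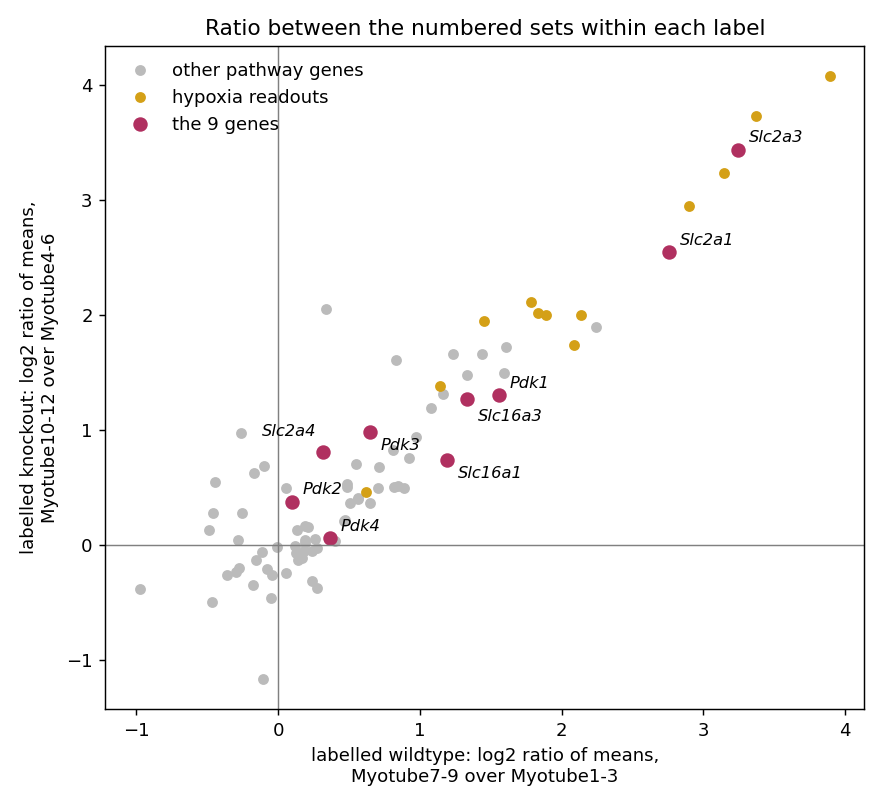
Log2 ratio of block means between the numbered sets in the labelled wildtype (horizontal axis, Myotube7-9 over Myotube1-3) and in the labelled knockout (vertical axis, Myotube10-12 over Myotube4-6), for the 9 genes (large named points), the 12 hypoxia readouts and the other pathway genes. Slc2a3 (3.24 and 3.44) and Slc2a1 (2.75 and 2.55) lie among the hypoxia readouts, whereas Pdk4 (0.37 and 0.06) and Pdk2 (0.10 and 0.38) lie near 0. The libraries on each axis are different, and no test was made.

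Per kilobase of merged exons, the order of the 9 genes differed between the numbered sets. In Myotube1-3 the mean level ran from Slc16a3 (199 normalized counts per kilobase) and Slc2a1 (147) down to Pdk2 (26.6), Pdk4 (25.7), Slc2a4 (24.8) and Slc2a3 (7.95). In Myotube7-9 Slc2a1 (994) stood above Slc16a3 (502), and Slc2a3 (75.3) above Pdk4 (33.2), Slc2a4 (30.9) and Pdk2 (28.4). The levels of Pdk2, Pdk4 and Slc2a4 in Myotube1-3 did not differ beyond their spread.

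The genes most like each member were found by Pearson correlation of log2 values over the 12 libraries, among 9179 genes whose mean reached 50. For most members the numbered sets set these values, and they are given as a description. Slc2a1 was most like Ero1l, an oxidase of the endoplasmic reticulum (r = 0.997), and Hilpda, a lipid droplet protein gene (r = 0.997), and Ero1l was also the nearest to Slc16a3 (r = 0.991). Pdk1 was most like Pfkfb3, a regulator of glycolysis (r = 0.995), and Ak4 (r = 0.990). Slc2a3 was nearest to Nos2 (r = 0.995), Slc16a1 to Mgarp (r = 0.977) and Pdk3 to Rnf144a (r = 0.972). The neighbours of Slc2a4 and Pdk4 were other genes, Npat (r = 0.956) and Dhx32 (r = 0.948) for Slc2a4 and Amacr (r = 0.934) and Zup1 (r = 0.926) for Pdk4. Pdk2 had the weakest likeness, to Brms1 (r = 0.911).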

How the data were processed

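Total RNA from mouse myotubes was sequenced in 12 libraries with a stranded kit, per the labels' protocols. The authors deposited normalized counts, treated here as a signal. The tools named in the submitters' processing notes are Trimmomatic 0.33, STAR 2.5.2, RSEM 1.3.3 and DESeq2, with build mm10. The gene annotation and the strand setting of counting are not given in the sources used here. Without that setting, reads of Slc2a1 and of an antisense gene that overlaps its exons cannot be told apart. Gene names came from GENCODE M21, made on the same build, for 19970 of 20201 identifiers (98.9%).

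The deposited values were whole reads divided by 1 factor per library (100% of values within 1e-06), and the design written for normalized values was kept. Run on those reads over 12 libraries, edgeR gave 2411 called genes and DESeq2 gave 2787. A floor of 3 reads was 2.12 to 5.85 normalized counts, and intervals and floors cover counting error only. Over 66 pairs of libraries the lowest chi-square per degree of freedom was 5.04, so no library was counted as a repeat of another.

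Log2(normalized count + 1) was fitted with limma 3.58.1 (trended prior, two-sided) as the main test, and p-values were adjusted by Benjamini and Hochberg's method over the 12553 genes whose mean reached 10. Differences are on that scale and are understated for low genes. A fit with 4 cells (label by numbered set, Myotube1-6 and Myotube7-12) gave the differences within each set and their difference, with 1 shared estimate of spread. Ratios between sets are ratios of block means, with no test. Levels per kilobase used the merged exons of GENCODE M21.

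The members, the lists and the sets were chosen with earlier results of these data known. Besides the 9 members and the 2 label checks, the rule named the 2 most alike genes per member and up to 2 risers and 2 fallers per pathway list. Where no gene of a list passed, its most abundant gene was named. The tests were checked on simulated data. Alternatives were pseudocounts of 0.5 and 10, other filters on low values, upper-quartile scaling, leaving out 8 genes that each took over 1% of a library, edgeR 4.0.16, DESeq2 1.42.0, library weights, an exact rank-sum test, the numbered set as a term, and each library left out in turn. R 4.3.3 and Python 3.11.15 were used.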

Additional observations from a re-analysis of the deposited data

Results flagged for a closer look

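Slc2a4 in the labelled knockout held a library above the other 5 of its group: Myotube10 stood at 72.1 normalized counts, and the next highest, Myotube4, at 37.9. Its gap to the nearest library, as a share of the group's range, was only narrowly above Dixon's critical value for 6 libraries. This was the 1 case among 18 groups checked (9 genes in 2 labels). Chance flags about 5% of groups whose 6 values come from 1 distribution. Each group here pooled both numbered sets, which did not overlap for most of the 9 genes. A widely split group, such as that of Slc2a1, could not readily be flagged. The 5% therefore gives no expected number of flags for these 18 groups. Myotube10 gave 37 reads for Slc2a4, with an exact Poisson interval of 26.1 to 51.0, and had the fewest reads outside the very abundant genes (2307238). Without it the fall of Slc2a4 with the knockout label was -1.69 (log2, SE 0.25, limma adjusted p = 0.00061).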

How the results depend on the processing

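Over 12 libraries Slc2a4 and Pdk4 passed under all alternatives run, with adjusted p-values of 0.00061 to 0.0098 and of 0.0018 to 0.017 as each library was left out. The number of genes called was 3785 with the numbered set as an additive term and 2031 to 2733 as libraries were left out. Within Myotube1-6 it was 1572 to 2403, with 1 to 3 members, and within Myotube7-12 it was 1190 to 3082, with 0 to 4 members (1190 genes without Myotube7; 4 members without Myotube2, 1 without Myotube7 or Myotube12 and 0 without Myotube9), and 4 members with the very abundant genes left out (Slc2a1, Slc2a4, Slc16a1 and Pdk4). The difference between sets called 0 genes with a pseudocount of 10, 0 with edgeR, 29 with DESeq2 and 1 to 4 as libraries were left out (3 without Myotube2, 4 without Myotube3).

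Direction turned only for differences that missed the threshold. With the very abundant genes left out, log2 differences became -0.12 (Slc2a1) and -0.14 (Slc16a3) over 12 libraries, -0.019 (Slc2a1), -0.025 (Slc16a1), -0.11 (Slc16a3) and -0.054 (Pdk2) within Myotube1-6, and -0.12 (Slc2a3), -0.16 (Slc16a3), -0.091 (Pdk1) and -0.12 (Pdk3) within Myotube7-12. Over 12 libraries Slc2a1 gave -0.028 with edgeR, -0.033 with DESeq2, -0.87 with library weights and -0.018 in the rank-sum comparison of medians, Slc2a3 gave 0.0083 with DESeq2, and weights gave -0.43 for Slc16a3 and -0.28 for Pdk1. Slc16a3 within Myotube7-12 gave -0.0045 with DESeq2. As libraries were left out, the ranges over 12 libraries were -0.25 to 0.32 (Slc2a1), -0.45 to 0.35 (Slc2a3), -0.24 to 0.043 (Slc16a1), -0.13 to 0.20 (Slc16a3) and -0.24 to 0.0066 (Pdk3). Within Myotube1-6 they were -0.33 to 0.15 (Slc2a3), -0.0096 to 0.15 (Slc16a3) and -0.012 to 0.24 (Pdk2). Within Myotube7-12 they were -0.012 to 0.13 (Slc2a3), -0.050 to 0.061 (Slc16a3) and -0.022 to 0.16 (Pdk3). For the difference between sets they were -0.11 to 0.36 (Slc2a3) and -0.15 to 0.010 (Slc16a3). The cause was not tested.

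No paired analysis was possible because the labels give no replicate numbers that tie libraries together. Ratios between sets kept their direction for the members with no overlap under the alternatives run. Of the others, the log2 ratio of Pdk4 in the labelled knockout went from 0.06 to -0.03 with the very abundant genes left out and ranged from -0.34 (without Myotube12) to 0.32 (without Myotube10), and that of Pdk2 in the labelled wildtype went from 0.10 to -0.0028 and ranged from -0.022 (without Myotube2) to 0.23. Depth limits Slc2a4 and Pdk4 most, at 14 to 198 and 18 to 172 reads per library.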
